A study of Homo sapiens with 16 samples.

Results

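The human gene LINC01016 makes a long non-coding RNA that is spliced in several ways. The comparison described here sets cells expressing cloned transcript T1 against cells expressing cloned transcript T2. The members are the 2 T1 libraries and the 2 T2 libraries, 4 of the 16 RNA-seq libraries in the series, chosen by their labels and paired by replicate number (1 with 1, 2 with 2). All are HEK293 cells, an established line grown from human embryonic kidney. The submitters describe LINC01016 as silent in this line. Cells in 60 mm plates received 5 micrograms of a pcDNA3.0 plasmid (a vector with a strong viral promoter) by lipofection, and RNA was taken 48 hours later. T1 and T2 plasmids carry those transcripts, the empty vector group received the plasmid without an insert, the parental group is the line labelled as such, and 4 other groups carry other cloned transcripts. Expression is therefore transient, in a cell type foreign to the gene, and from 1 cell line.

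A long non-coding RNA acts, where it acts at all, through its sequence, its structure or the proteins it binds, so isoforms that differ in exons can differ in effect. Plasmid transfection has effects of its own. DNA in the cytosol and RNA made from it can be sensed by receptors such as RIG-I, which leads to interferon release and to the interferon-stimulated genes, and stressed cells transcribe immediate-early genes such as FOS and JUN within minutes without needing new protein.

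The 4 libraries held 17255935 and 15986789 counts in T1 and 16254700 and 15468756 in T2, within the range of all 16 (15040770 to 17255935). Where values for a group come as a pair, replicate 1 stands first. CPM is the usual depth-scaled count of a gene in its library, corrected for library composition by TMM, except for the LINC01016 locus, where the deposited total was used. Between replicates of a group the chi-square divided by its degrees of freedom was 17.6 in T1 and 6.28 in T2, the highest and the lowest of the 8 groups and above the sampling noise of 1, so each library was kept as a replicate. No label says that replicates came from separate cultures, and the p-values rest on a spread between libraries that may be technical. The smallest p of an exact permutation of 2 against 2 libraries is 0.33. Calls therefore rest on a model fitted over all genes and libraries.

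Marker genes of HEK293 cells were expressed in all 4 libraries. Of 14 markers of the line, VIM was read at 1273 and 1432 CPM in T1 and 1302 and 1504 in T2, and KRT8, KRT18, NEFL, LHX1, SALL1 and EYA1 were also expressed. PAX8 was at or near 0 in each. Summed CPM of the 14 markers was 2850 and 3199 in T1 and 2903 and 3298 in T2, which overlap.

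LINC01016 was expressed from both plasmids at a high level, somewhat higher from T1. On chromosome 6 (33867506 to 33896914, minus strand, GRCh38.p13 in the deposited annotation), the gene took 114150 and 99673 counts in T1 and 84279 and 73533 in T2. The empty vector libraries held 1 and 0 counts and the parental libraries none. As CPM of the total, these were 6615 and 6235 in T1 and 5185 and 4754 in T2, or 6425 ± 269 against 4970 ± 305 (SD, n = 2). Both T1 libraries lay above both T2 libraries, yet the log2 difference of 0.36 ± 0.186 (SE) did not pass the edgeR quasi-likelihood test (adjusted p = 0.716). In a fit of the 4 libraries alone it passed with the same size (edgeR adjusted p = 2.02e-05). That fit leaves 1 residual degree of freedom, against 7 in the main fit, so its estimate of the spread is weak. Among the 7 transfected groups T1 ranked 4 and 3 by LINC01016 level and T2 ranked 5 in both replicates.

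Counts per gene add up reads over all annotated exons, so they do not tell T1 from T2 and do not give molecules per cell. The lengths of the cloned transcripts were not analysed here, and transcript length and transcript number cannot be told apart in this difference. ENSG00000233183, a gene on the opposite strand that overlaps LINC01016 (chromosome 6, 33891327 to 33927631, plus strand), was counted beside it. It held 8415 and 6979 counts in T1 and 5763 and 4732 in T2, which is 7.37% and 7.0% of the LINC01016 counts in T1 and 6.84% and 6.44% in T2. Its log2 difference was 0.48 ± 0.334 (edgeR adjusted p = 0.79). In the 4-library fit, with the same few residual degrees of freedom, it passed (edgeR adjusted p = 6.88e-06). Counting was set to use strand, and how much of this count comes from imperfect strand marking was not tested.

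A single gene passed the test between T1 and T2, and it lies outside the LINC01016 locus. Of 19316 genes tested, 1 passed with T1 higher (0.00518%) and 0 passed with T2 higher (0.00%), at a Benjamini-Hochberg adjusted p under 0.05 in edgeR's quasi-likelihood test. At an unadjusted p under 0.05 there were 749 genes with T1 higher (3.88%) and 762 with T2 higher (3.94%), 1511 in all (7.82%). DESeq2 also gave 1 passing gene, with 845 genes under that unadjusted limit. The median log2 difference of all tested genes was 0.001. Of the 10843 genes with a mean above 10 CPM, 99.2% had a 95% interval of the difference within 2-fold in either direction, and 13 had a fitted difference of 1.5-fold or more. Across genes the differences within replicate 1 and within replicate 2 had a correlation of -0.0072, a description over genes that are not independent and share the same 4 libraries. Beside the vector, 2 genes passed in T1 (0.0104%) and 1 in T2 (0.00518%), all at the LINC01016 locus. Those comparisons share their control libraries.

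MAFF was the gene that passed. It encodes a small Maf protein, a basic leucine zipper factor without a transactivation domain of its own that pairs with CNC factors such as NRF2. On chromosome 22 (38200767 to 38216507, plus strand), it was read at 31.6 and 44.5 CPM in T1 and 21.4 and 23.5 in T2. The empty vector had 28.1 ± 2.1 CPM (SD, n = 2) and parental cells 2.76 CPM on average. In both replicates T1 was the highest and T2 the lowest of the 7 transfected groups. The fitted log2 difference was 0.74 ± 0.124 (edgeR adjusted p = 0.0469), with a 95% interval from 0.49 to 1.00, and the replicate pairs gave 0.556 and 0.918. Against the vector, T1 differed by a log2 of 0.42 ± 0.12 and T2 by -0.32 ± 0.13, neither passing.

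The MAFF call stands close to the limit. It was lost without the replicate block (edgeR adjusted p = 1), with a filter at a mean log2 CPM of 1 (0.096), and without T1 replicate 2 (1), T2 replicate 1 (0.0654), T2 replicate 2 (0.496), either vector library (0.0564 and 0.0536), either CU2 library (0.118 and 0.114) or either CU1ENU library (0.113 and 0.105), while its log2 difference stayed between 0.622 and 0.865 in every setting run.

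The 250 bases before the RefSeq start of MAFF (GRCh38.p14, chr22:38201744-38201993, plus strand) are shown because MAFF is the gene that passed. This start lies inside the gene of the deposited annotation, which begins further upstream. Capitals mark the cAMP response element, TGACGTCA, searched on both strands, at bases 54 to 47 before the start.
MAFF: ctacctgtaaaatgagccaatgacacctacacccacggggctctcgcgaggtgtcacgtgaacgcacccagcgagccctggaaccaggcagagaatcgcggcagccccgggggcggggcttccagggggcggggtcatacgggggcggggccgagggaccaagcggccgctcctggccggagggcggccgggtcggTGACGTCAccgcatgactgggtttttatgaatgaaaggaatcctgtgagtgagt
Of 27305 RefSeq promoters of this length, 1.77% held TGACGTCA, and 4 (12.5%) of the 32 immediate-early genes matched there held it, MAFF among them. The AP-1 motif TGANTCA was held by 6.6% of all these promoters and by 0 of the 32. FOS and JUN held neither TGACGTCA nor TGANTCA in the same window, which says only that these letters are not there. The MAFF window also held no AP-1 motif. Which motifs to search was decided after values were seen.

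Immediate-early genes, the transcription factors, phosphatases and feedback regulators that cells switch on first after a stimulus, held MAFF and were mostly higher in T1. Of 42 listed genes 41 were tested. MAFF passed. An unadjusted p under 0.05 was found for 20 with T1 higher and 2 with T2 higher (3.88% and 3.94% of all tested genes). The difference was positive for 36 (50.2% of all tested genes). T1 was higher in both replicate pairs for 33 of the 41, against 27.9% of all tested genes. Both T1 libraries lay above both T2 libraries for 20 (13.8% of all tested genes) and below for none. The list's median log2 difference was 0.24, with 0.116 in replicate 1 and 0.382 in replicate 2. The mean log2(CPM + 1) of the list was 5.254 and 5.455 in T1 and 5.11 and 5.128 in T2, with 5.204 and 5.246 in the vector and 4.174 and 4.167 in parental cells. T1 was the highest and T2 the lowest of the 7 transfected groups in both replicates. This list was among those known from earlier results of these data, so its direction is not independent evidence.

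**Figure D1:**
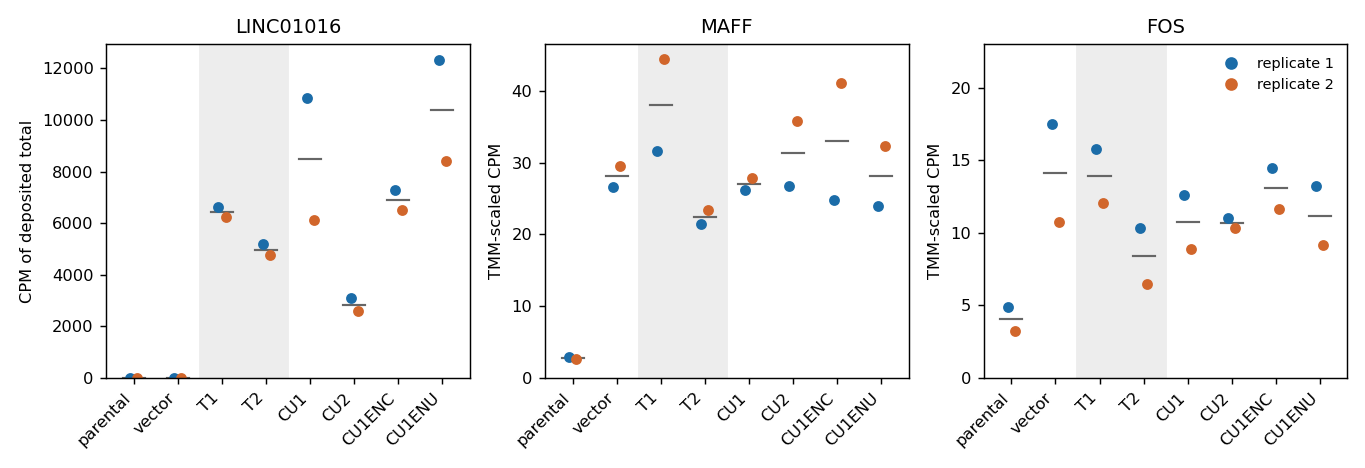
LINC01016, MAFF and FOS in each library of the 8 groups (vertical axis: CPM, points: libraries of replicate 1 and 2, bars: group means, grey band: T1 and T2). Both T1 libraries lie above both T2 libraries in each panel, and MAFF is near 3 CPM in parental cells and between 21.4 and 44.5 CPM in T1 and T2.

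FOS, the AP-1 subunit and best known immediate-early gene, was read at 15.8 and 12.03 CPM in T1 and 10.3 and 6.44 in T2, with 14.1 ± 4.75 in the vector (SD, n = 2). T2 was the lowest transfected group in both replicates. Its log2 difference of 0.74 ± 0.158 did not pass (edgeR adjusted p = 0.13). JUN, the partner of FOS, was read at 665 and 859 CPM in T1 and 602 and 643 in T2 (log2 difference 0.28 ± 0.07, adjusted p = 0.436). DUSP1, a phosphatase that switches off MAP kinases, stood at 276 and 397 CPM in T1 and 255 and 296 in T2, groups that overlap. FOSB and FOSL1 had fitted differences of 0.65 ± 0.195 and 0.58 ± 0.173, larger than for JUN and smaller than for FOS. Most of each difference lay in replicate 2 (1.00 and 0.84 against 0.294 and 0.296 in replicate 1). Some members stood the other way: IER5 had -0.17 ± 0.071 and BTG2 -0.14 ± 0.069. FOSB, FOSL1, IER5 and BTG2 were named after their values were seen.

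The other small Maf genes were looked at after the MAFF value was known. MAFK was read at 153 and 248 CPM in T1 and 130 and 186 in T2, with a log2 difference of 0.33 ± 0.068 (edgeR adjusted p = 0.13). MAFG stood at 126 and 162 CPM in T1 and 110 and 130 in T2, with 0.26 ± 0.074 (adjusted p = 0.439). In both genes the 2 groups overlap, and within each replicate T1 lies above T2.

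**Figure D2:**
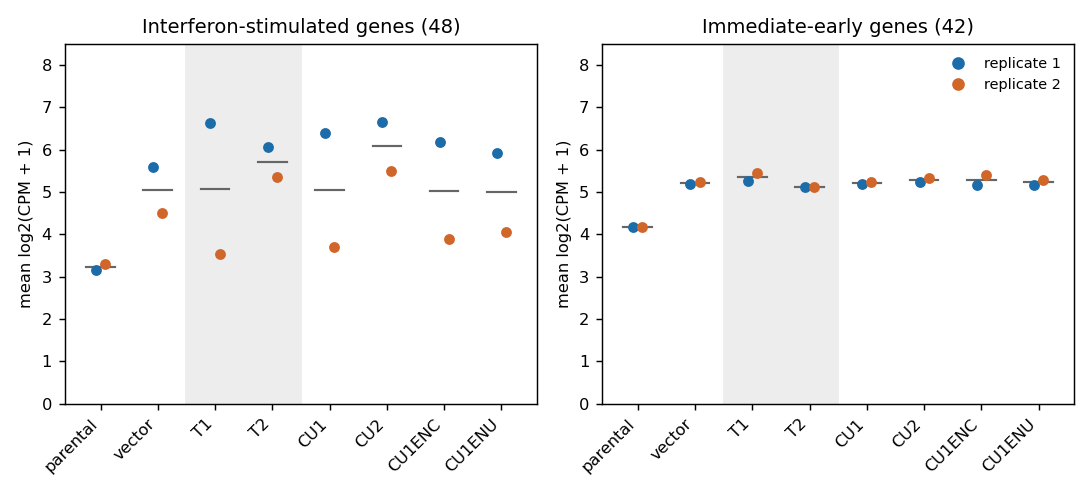
Mean log2(CPM + 1) of gene lists in each library of the 8 groups (vertical axis: mean log2(CPM + 1) over the list, points: replicate 1 and 2, bars: group means, grey band: T1 and T2). Immediate-early genes are highest in T1 and lowest in T2 among transfected groups, and interferon-stimulated genes in T1 stand at 6.639 in replicate 1 and 3.529 in replicate 2.

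Lists of other stress pathways held no passing gene. Of 38 integrated stress response genes, which ATF4 activates when translation initiation is limited, 7 had an unadjusted p under 0.05 with T1 higher and 0 with T2 higher (3.88% and 3.94% of all tested genes), and 29 were positive (50.2% of all tested genes). The median was 0.038 in replicate 1 and 0.119 in replicate 2. SLC7A5 and SLC3A2, the 2 chains of a large amino acid transporter, were at 94.4 and 128 and at 327 and 452 CPM in T1, against 86.2 and 100 and 307 and 353 in T2. Their groups overlap. SESN2, which signals amino acid shortage to mTORC1, was at 64.5 and 73.5 CPM in T1 and 58.0 and 58.0 in T2 (log2 difference 0.25 ± 0.08, edgeR adjusted p = 0.44). STC2, a secreted glycoprotein, was at 72.0 and 93.5 in T1 and 69.9 and 69.9 in T2.

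Of 26 unfolded protein response genes, 4 had an unadjusted p under 0.05 with T1 higher and 1 with T2 higher (3.88% and 3.94% of all tested genes). T1 was higher for 11 of 26 in replicate 1 (median -0.03) and for 21 in replicate 2 (median 0.095). Of all 19316 tested genes, T1 was higher for 9954 in replicate 1 and for 9541 in replicate 2. Pairs of opposite sign were found for 12 of the 26 (45.1% of all tested genes). The list's fitted median of 0.04 became -0.019 without T2 replicate 2. CRELD2, an endoplasmic reticulum chaperone partner, was at 79.8 and 97.6 CPM in T1 and 69.4 and 73.0 in T2 (log2 difference 0.31 ± 0.07, edgeR adjusted p = 0.269). HERPUD1 and SYVN1, both parts of the pathway that degrades misfolded proteins of the endoplasmic reticulum, did not overlap either, with HERPUD1 at 61.1 and 87.0 in T1 and 53.3 and 59.9 in T2. HSPA5, the main chaperone of that compartment, overlapped (880 and 1212 against 855 and 970 CPM). Of 24 NF-kB and inflammatory genes, 4 had an unadjusted p under 0.05 with T1 higher and 0 with T2 higher (3.88% and 3.94% of all tested genes), with a median of 0.11 that became -0.017 without T1 replicate 1. Among the 4 was TNFAIP3, a brake on NF-kB signalling, with a log2 difference of 0.34 ± 0.11 (adjusted p = 0.454). PTGS2, the inducible cyclooxygenase, had 0.43 ± 0.16, and RELB, an NF-kB subunit, 0.31 ± 0.13. Heat shock and chaperone genes ran the other way, with 21 of 26 negative (49.8% of all tested genes, median -0.07) and 10 of 26 with both T1 libraries below both T2 libraries, against 14.9% of all tested genes. DNAJA1, a co-chaperone of HSP70, was at 482 and 437 CPM in T1 and 518 and 497 in T2.

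No gene of protein synthesis or energy supply passed. Of 79 cytosolic ribosomal protein genes, 75 had a negative difference (49.8% of all tested genes), 57 were lower in T1 in both pairs (27.0% of all tested genes), and 7 had an unadjusted p under 0.05 with T2 higher (3.94% of all tested genes). The median was -0.09, with -0.136 in replicate 1 and -0.039 in replicate 2, and -0.005 without T2 replicate 1. RPL7A, a large-subunit protein, was at 1437 and 1461 CPM in T1 and 1650.4 and 1633 in T2 (log2 difference -0.18 ± 0.05, edgeR adjusted p = 0.439). RPS3 and RPS4X, both small-subunit proteins, had -0.18 ± 0.07 and -0.15 ± 0.06. Genes that build ribosomes had fitted differences mostly of the other sign: 26 of 34 ribosome biogenesis genes were positive (50.2% of all tested genes) and 6 had an unadjusted p under 0.05 (3.88%), with medians of 0.013 in replicate 1 and 0.099 in replicate 2, and with POLR1A, the largest subunit of RNA polymerase I, at 91.4 and 91.3 CPM in T1 and 76.6 and 82.6 in T2. Hosts of small nucleolar RNAs had no common direction, with 8 of 24 higher in T1 in replicate 1 (median -0.077) and 22 in replicate 2 (median 0.17). The same counts over all 19316 tested genes were 9954 and 9541. SNHG17 and SNHG15, 2 of these hosts, had 0.28 ± 0.08 and 0.18 ± 0.08.

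Of 76 nuclear-encoded respiratory chain and ATP synthase genes, 65 were negative, 45 were lower in T1 in both pairs and 11 had an unadjusted p under 0.05 with T2 higher, against 49.8%, 27.0% and 3.94% of all tested genes. The median was -0.138 in replicate 1, where 7 were positive, and -0.039 in replicate 2, where 27 were positive (9954 and 9541 of all 19316 tested genes). The list's fitted median of -0.094 became -0.017 without T2 replicate 1. NDUFB5, a complex I subunit, was at 50.1 and 45.3 CPM in T1 and 59.7 and 51.8 in T2 (-0.22 ± 0.08, edgeR adjusted p = 0.454), and ATP5MC2 and ATP5F1A, both ATP synthase subunits, had -0.17 ± 0.06 and -0.15 ± 0.06. All 13 protein genes encoded in mitochondrial DNA were positive (50.2% of all tested genes), with a median of 0.13 and 0 with an unadjusted p under 0.05. MT-ND2 was at 713 and 625 CPM in T1 and 614 and 511 in T2, with an error larger than the difference (0.25 ± 0.26). MT-ND1 showed 0.27 ± 0.34. Counts of mitochondrial genes made up 1.52% and 1.17% of T1 libraries and 1.35% and 1.1% of T2 libraries, which overlap.

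Of 25 cholesterol synthesis genes 20 were negative (49.8% of all tested genes) and 5 had an unadjusted p under 0.05 with T2 higher (3.94% of all tested genes), with a median of -0.099 in replicate 1 and -0.166 in replicate 2. NSDHL, a sterol dehydrogenase of the late pathway, was at 38.8 and 35.7 CPM in T1 and 42.6 and 54.4 in T2 (-0.37 ± 0.10, edgeR adjusted p = 0.434), with FDFT1, squalene synthase, at 127 and 114 against 144 and 139. ACAT2, which makes acetoacetyl-CoA, had -0.21 ± 0.09. Among 33 G1/S and replication genes 23 were negative (49.8% of all tested genes), with a median of -0.05 in replicate 1 and -0.034 in replicate 2. Pairs of opposite sign were found for 11 of the 33 (45.1% of all tested genes). TYMS, thymidylate synthase, was at 303 and 286 against 337 and 331, and PCNA, the replication clamp, at 347 and 335 against 380 and 372. Among 34 G2 and mitosis genes 26 had a negative fitted difference (49.8% of all tested genes). Pairs of opposite sign were found for 17 of the 34 (45.1% of all tested genes). The list's median was -0.092 in replicate 1 and -0.016 in replicate 2, and 0 without T2 replicate 1. CDK1, the mitotic kinase, was at 186 and 163 against 218 and 202, and KIF11, a spindle motor, at 146 and 152 against 161 and 176. Of 27 p53 target genes, 6 had an unadjusted p under 0.05 with T2 higher and 1 with T1 higher (3.94% and 3.88% of all tested genes). The medians of the 2 pairs had opposite signs, 0.037 in replicate 1 and -0.139 in replicate 2. T1 was higher for 18 of 27 in replicate 1 and for 7 in replicate 2 (9954 and 9541 of all 19316 tested genes). By gene, 11 of the 27 had pairs of opposite sign (45.1% of all tested genes). In both pairs 9 were lower in T1 and 7 higher (27.0% and 27.9% of all tested genes). The fitted median of -0.06 became 0.032 without T2 replicate 2. BAX, which permeabilizes mitochondria in apoptosis, was at 127 and 112 against 145 and 132, and TP53INP1, a stress-induced p53 cofactor, at 27.0 and 21.9 against 32.7 and 30.2. Replication-dependent histone genes had no common direction, 19 of 31 positive (50.2% of all tested genes). H4C5, a histone H4 gene, was at 4.14 and 3.42 CPM in T1 and 2.28 and 1.71 in T2 (0.92 ± 0.29), and H2AC8, a histone H2A gene, at 3.97 and 3.23 against 2.53 and 2.04. Histone RNAs of this class mostly lack a poly(A) tail, and the labels do not say whether libraries were selected for one.

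**Figure D3:**
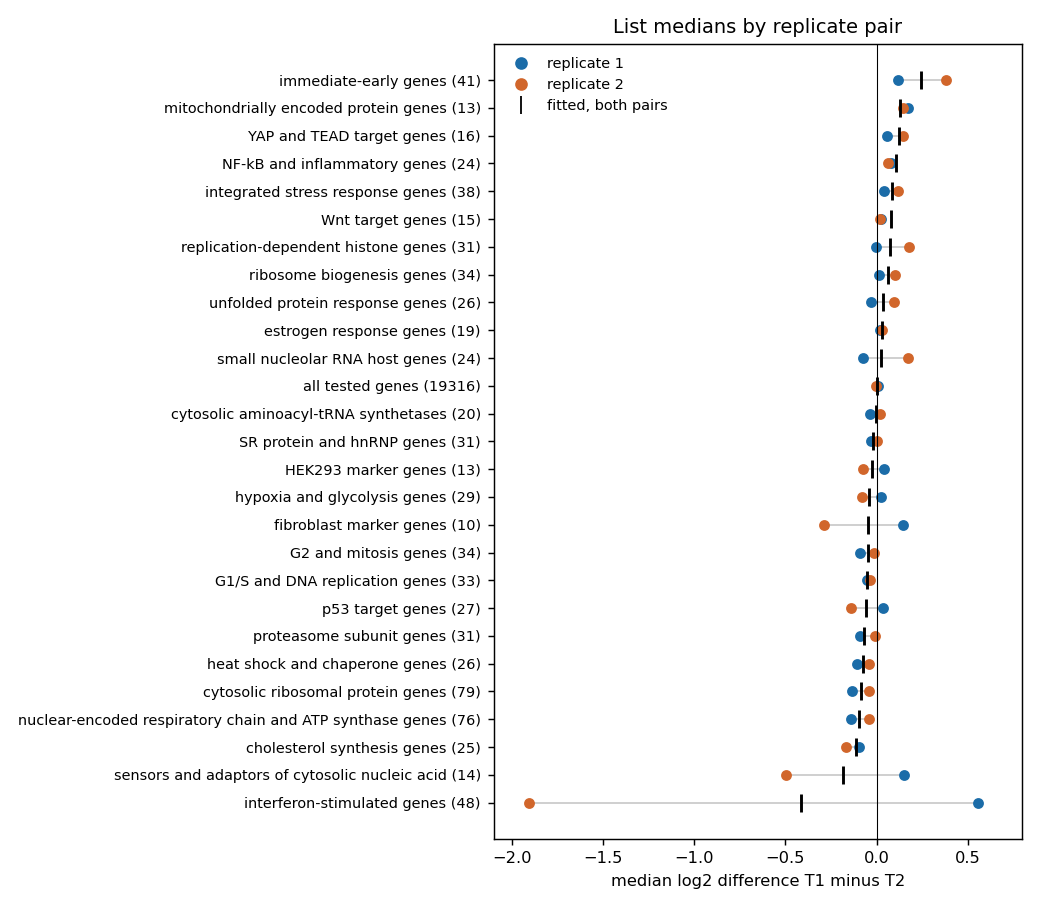
Median log2 difference T1 minus T2 of each gene list with at least 10 tested genes (number tested in brackets) and of all tested genes, in replicate 1, in replicate 2 and as fitted over both pairs. Interferon-stimulated genes lie at 0.558 and -1.908 in the 2 replicates, and the immediate-early genes lie above 0 in both.

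Among the remaining lists, YAP and TEAD targets had 15 of 16 positive (50.2% of all tested genes) and 11 of 16 higher in T1 in both pairs (27.9% of all tested genes), with a median of 0.12 and no passing gene. Among them was LATS2, a kinase of the Hippo pathway, at 28.3 and 45.3 CPM in T1 and 27.9 and 32.0 in T2. Wnt targets had 10 of 15 positive (50.2% of all tested genes). In both pairs 4 of 15 were higher in T1 (27.9% of all tested genes), and 9 had pairs of opposite sign (45.1%). The Wnt median was 0.08, but -0.039 without T1 replicate 1 and -0.056 without T2 replicate 1, with TBX3, a T-box factor, at 0.27 ± 0.08. Proteasome subunits were negative in 22 of 31 (49.8% of all tested genes), and 10 of 31 had both T1 libraries below both T2 libraries (14.9% of all tested genes). Their median was -0.07, with -0.09 in replicate 1 and -0.007 in replicate 2, and 0.016 without T2 replicate 1, with PSMA7, a core subunit, at 214 and 212 against 228 and 248. Splicing factors of the SR and hnRNP families (median -0.02) included HNRNPA1 at 1543 and 1632 against 1717 and 1792. Aminoacyl-tRNA synthetases, estrogen response, hypoxia and glycolysis, and metallothionein lists had medians between -0.04 and 0.03, and 0 genes passed. An unadjusted p under 0.05 with T1 higher was found for 4 of 19 estrogen response and 4 of 29 hypoxia and glycolysis genes (3.88% of all tested genes). With T2 higher it was found for 1 gene in each of these 2 lists (3.94% of all tested genes).

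The genes with the lowest p with T1 higher after MAFF included NOM1, a nucleolar protein, at 73.4 and 77.6 CPM in T1 and 57.0 and 61.5 in T2 (log2 difference 0.35 ± 0.07, edgeR adjusted p = 0.13). T1 was the highest and T2 the lowest transfected group in both replicates for NOM1, with the vector at 66.2 ± 0.0283. SAMD4A, a translational repressor, was at 47.6 and 61.7 in T1 and 36.6 and 47.2 in T2. PITPNM3, a membrane-associated phosphatidylinositol transfer protein, stood at 13.8 and 13.2 in T1 and 9.49 and 7.69 in T2, the largest fitted difference of the 10 genes named in this direction after MAFF and FOS (0.66 ± 0.15). RIPK4, a kinase, AGAP9, an ARF GTPase-activating family member with near-identical copies, ZNF431, a zinc finger gene, and USP36, a nucleolar deubiquitinase, had log2 differences between 0.28 and 0.48 (adjusted p = 0.434 for each).

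With T2 higher, CPVL, a carboxypeptidase, had the lowest p, at 56.2 and 63.0 CPM in T1 and 76.0 and 79.1 in T2 (-0.38 ± 0.08, edgeR adjusted p = 0.13). ARL6IP1, an endoplasmic reticulum shaping protein, was at 191 and 178 in T1 and 223 and 222 in T2, against 190 ± 2.38 in the vector. CD59, a cell-surface inhibitor of complement, was at 96.1 and 78.2 in T1 and 114 and 100 in T2. CCNG1, a p53-induced cyclin, was at 243 and 195 in T1 and 287 and 254 in T2, and RAB5B, an early endosome GTPase, at 146 and 124 against 164 and 160. BVES, an adhesion protein, stood at 38.8 and 41.0 in T1 and 49.8 and 49.6 in T2. H3P6 is a histone pseudogene whose reads may be shared with near-identical copies, so its difference (-0.30 ± 0.07) is uncertain.

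Interferon-stimulated genes, which encode antiviral proteins, had large differences between T1 and T2, of opposite sign in the 2 replicates. All 48 listed genes were tested, and all 48 were higher in T1 in replicate 1 and lower in T1 in replicate 2, against 23.6% of all tested genes. Their median difference was 0.558 in replicate 1 (from 0.150 to 1.63) and -1.908 in replicate 2 (from -3.80 to -0.518). The fitted median was -0.42, 42 of 48 fitted values were negative (49.8% of all tested genes), and 0 had an unadjusted p under 0.05. The mean log2(CPM + 1) of the list was 6.639 and 3.529 in T1 and 6.062 and 5.359 in T2, with 5.601 and 4.503 in the vector and 3.167 and 3.297 in parental cells. In replicate 2 T1 was the lowest of the 7 transfected groups and T2 ranked 2. In each of the 7 the list was lower in replicate 2 than in replicate 1. CU1 went from 6.392 to 3.706, CU1ENC from 6.185 to 3.886, CU1ENU from 5.931 to 4.058 and CU2 from 6.656 to 5.509. A fall between replicates is therefore not particular to T1. Without T1 replicate 1 the median of interferon-stimulated genes was -1.554, without T2 replicate 1 it was -0.959, without T1 replicate 2 it was 0.127 and without T2 replicate 2 it was 0.153.

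**Figure D4:**
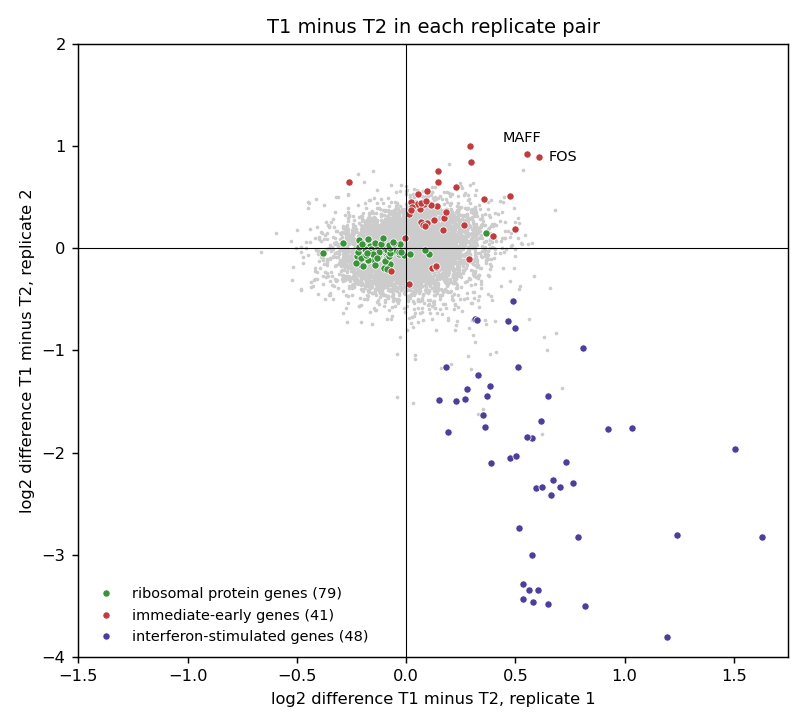
Log2 difference T1 minus T2 in replicate 1 (horizontal) against replicate 2 (vertical) for the 10843 genes above 10 CPM (grey) and for members of 3 lists, each point a gene. All 48 interferon-stimulated genes lie to the right and below 0, MAFF lies at 0.556 and 0.918, and most ribosomal protein genes lie below and to the left of 0.

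IFIT1, a protein that binds foreign RNA lacking cap methylation, was read at 569 and 23.2 CPM in T1 and 393 and 228 in T2, with 145 ± 93.6 in the vector (SD, n = 2). T1 libraries therefore bracket both T2 libraries, and the log2 difference of -1.0 ± 1.01 did not pass (edgeR adjusted p = 0.869). RIGI, the sensor RIG-I, was at 238 and 28.0 in T1 and 182 and 120 in T2. IFIT5, a relative of IFIT1, was at 180 and 35.7 against 157 and 124, PLSCR1, a phospholipid scramblase, at 159 and 33.8 against 143 and 94.6, and EIF2AK2, the RNA-activated kinase PKR, at 406 and 169 against 369 and 295.

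Interferon genes themselves were near the detection limit. IFNB1 was read at 0.747 and 0.507 CPM in T1 and 0.678 and 1.18 in T2 (log2 difference -0.70 ± 0.68), and IFNL1 at 0.977 and 0.317 against 0.862 and 0.394 (0.01 ± 0.78). CCL5, a chemokine induced with interferon, was at 5.12 and 0.380 in T1 and 3.02 and 3.62 in T2. All 9 tested genes of the interferon and chemokine list were higher in T1 in replicate 1. Of these, 6 were lower in T1 in replicate 2, a pattern found for 23.6% of all tested genes. Among 14 tested sensors and adaptors of cytosolic nucleic acid, the median was 0.153 in replicate 1 and -0.498 in replicate 2. TBK1, the kinase that activates IRF3, was at 42.4 and 44.8 against 49.5 and 48.5, and IKBKE, its relative, at 4.71 and 4.31 against 6.34 and 5.72.

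The RefSeq promoters of IFIT1 (GRCh38.p14, chr10:89392373-89392622, plus strand) and IFIT5 (chr10:89414318-89414567, plus strand) are shown. Like all 48 listed interferon-stimulated genes, both were higher in T1 in replicate 1 and lower in replicate 2. Among the promoters of IFIT1, IFIT5, RIGI and PLSCR1, these held the most matches to the motif below, 2 each. Capitals mark the interferon-stimulated response element core, which is GAAA, any 2 bases and GAAA again, searched on both strands and found here on the minus strand.
IFIT1: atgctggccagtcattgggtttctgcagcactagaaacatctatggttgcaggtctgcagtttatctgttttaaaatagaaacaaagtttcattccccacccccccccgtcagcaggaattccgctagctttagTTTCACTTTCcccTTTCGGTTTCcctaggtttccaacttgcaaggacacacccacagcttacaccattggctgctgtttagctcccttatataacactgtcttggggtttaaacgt
IFIT5: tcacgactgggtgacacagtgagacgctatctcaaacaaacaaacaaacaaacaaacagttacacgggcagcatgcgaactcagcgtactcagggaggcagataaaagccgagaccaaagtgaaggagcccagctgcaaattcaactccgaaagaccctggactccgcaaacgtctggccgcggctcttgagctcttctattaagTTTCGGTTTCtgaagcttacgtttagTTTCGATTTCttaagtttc
Matches stood at bases 116 to 107 and 103 to 94 before the start in IFIT1 and at bases 45 to 36 and 19 to 10 in IFIT5. PLSCR1 held 1 match, at bases 79 to 70, and RIGI none in this window. Of all 27305 promoters 3.07% held the core, and 21 (53.8%) of the 39 interferon-stimulated genes matched there held it.

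Markers of other cell types were mostly at or near 0, with exceptions that included KRT17, COL1A1, TAGLN and ACTA2. Of 20 germ cell markers, DAZL, STRA8, PRM1, PRM2 and TNP1 were at 0 in all 4 libraries and the summed level was 17.8 and 18.2 CPM in T1 and 17.5 and 18.3 in T2. Leukocyte and erythroid markers summed to 6.27 and 7.66 in T1 and 4.50 and 4.67 in T2, with CD3E and MS4A1 at 0, and CD14 at 3.05 and 4.56 against 1.91 and 2.56. Keratinocyte and cervical markers summed to 591 and 786 in T1 and 562 and 553 in T2, nearly all of it KRT17 (578 and 777 against 549 and 544), while KRT5, KRT14 and TP63 were under 0.5 CPM. Among 13 fibroblast markers, summing to 108 and 127 in T1 and 103 and 116 in T2, DCN was at 0, and PDGFRA was at 1.15 and 0.317 against 1.42 and 1.91. Kidney tubule markers summed to 15.6 and 9.94 in T1 and 14.6 and 11.8 in T2. Leukocyte and keratinocyte sums did not overlap between T1 and T2, with T1 higher. KRT17 was higher in T1 in both pairs, as were 33 of the 41 immediate-early genes, and its part in any result was not tested.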

How the data were processed

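The deposited values are raw counts of reads per gene, with no normalization by the authors. Per the file headers they were made with featureCounts 2.0.1 over exons grouped by gene (Ensembl 101, strand option 2). Per the submitters' processing notes, HISAT2 and DESeq2 were used with GRCh38.p13, with no versions stated. Groups came from sample titles, and 16 libraries of 8 groups entered the fit. Genes passing filterByExpr (minimum count 10, total 15), 19316 of 60671, were TMM-scaled and tested with edgeR 4.0.16 in R 4.3.3 (robust quasi-likelihood, 8 group means plus replicate number as block, 7 residual degrees of freedom, contrast T1 minus T2), with Benjamini-Hochberg adjustment over all tested genes. SE is the absolute log2 fold change over the square root of F, and intervals from it are approximate. Pair differences are log2 CPM with a prior count of 2. DESeq2 1.42.0 was an alternative. The scripts were tested on simulated data.

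Deviations from the group means correlated between libraries of equal number for each of the 28 pairs of groups (0.162 to 0.442, and 0.275 between T1 and T2), so numbers were taken to pair the libraries. That comes from the data, since the labels do not say what a number marks. The 2 locus genes and, in each direction, the 10 genes of lowest p with a mean log2 CPM of at least 1 and non-overlapping groups were named, together with up to 4 members of lowest p per list in the direction of its median, IFNB1 and IFNL1. The 32 lists held 891 entries, of which 890 matched the table. The members and lists were chosen with earlier results of these data known. Motifs, and leaving out libraries of the other groups, were chosen after seeing the data. No set test was run.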

Additional observations from a re-analysis of the deposited data

Results flagged for a closer look

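The interferon-stimulated gene list had a median log2 difference T1 minus T2 of 0.558 in replicate 1 and -1.908 in replicate 2, with all 48 genes on opposite sides in the 2 pairs. The pairs moved in opposite directions, and the difference between replicates was not tested, since each pair holds 1 library of each group.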

How the results depend on the processing

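The number of genes passing (1 with the replicate block over 16 libraries) was 0 without the replicate block (456 at an unadjusted p under 0.05), 2 with the 14 transfected libraries, 16 with the 4 T1 and T2 libraries alone (13 with T1 higher), 26 with no low-count filter (16 with T1 higher, of 38201 genes) and 0 with a mean log2 CPM of at least 1 (1298 unadjusted). Leaving out 1 library at a time gave from 0 to 24, with 24 without T1 replicate 1, and 0 without T1 replicate 2, T2 replicate 2 or either library of empty vector, CU2 or CU1ENU. It was 3 without either parental library. DESeq2, its size factors in edgeR, total counts and leaving out the locus each gave 1. The causes were not tested.

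With the 4 libraries alone, the LINC01016 difference of 0.363 and that of ENSG00000233183 of 0.478 passed (edgeR adjusted p = 2.02e-05 and 6.88e-06). The 4-library fit leaves 1 residual degree of freedom. With 1 library of an arm left out, the LINC01016 difference ran from 0.219 to 0.496 and ENSG00000233183 from 0.203 to 0.722, and the lone sample is assumed to vary like the other groups. The direction of IFNL1 turned under DESeq2 (-0.0505) and with no low-count filter (-0.0154). Leaving out 1 library turned the direction at 1 end of the range for IFNL1 (-0.345 to 0.196), CCL5 (-2.74 to 0.240), EIF2AK2 (-0.673 to 0.00253) and IFNB1 (-1.92 to 0.612). It also turned the medians of NF-kB (to -0.017), proteasome (0.016), p53 target (0.032), unfolded protein response (-0.019), Wnt target (-0.056), histone (-0.017), hypoxia (0.033) and nucleic acid sensor genes (0.003), and moved the ribosomal protein median (-0.173 to -0.005) and the nuclear respiratory median (-0.181 to -0.017). The median of interferon-stimulated genes was 0.045 without the replicate block, against -0.417 with it, and 0.153 at most with a library left out. Leaving out the replicate block changed the call of MAFF and of no other named gene.

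Depth limits the low genes: 74.4% of all tested genes had a 95% interval within 2-fold, against 99.2% above 10 CPM. Median differences by quartile of exonic length ran from -0.011 to 0.015.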

Other observations

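The 10843 genes above 10 CPM were searched for opposite pairs, with limits set after seeing the values. Of these, 47 were higher in T1 by more than 0.2 (log2) in replicate 1 and lower by more than 0.8 in replicate 2. The mirror pattern was found for 0 genes. Of the 47, 34 belong to the 3 antiviral lists (interferon-stimulated genes, interferons and chemokines, and nucleic acid sensors) and 13 do not. Those lists do not hold every gene that interferon can induce, and whether the 13 respond to interferon was not tested. Among those outside, DDX60L, a helicase relative of DDX60, was read at 74.0 and 6.90 CPM in T1 and 48.0 and 24.7 in T2. SP110, a nuclear body protein, was at 153 and 27.5 against 122 and 84.8. PARP12, a mono-ADP-ribosyltransferase, was at 83.2 and 14.8 against 65.2 and 44.3. SAMHD1, which degrades deoxynucleotides, was at 225 and 73.8 against 195 and 162, and TRIM21, an antibody-binding ubiquitin ligase, at 56.3 and 16.6 against 45.5 and 30.0. NLRC5, a regulator of MHC class I genes, was at 22.3 and 6.02 against 14.2 and 12.1. CORO2B and BCYRN1, the latter a neuronal small RNA gene, also met the limits.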
